A study of Mus musculus with 6 samples.

Results

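Mouse CCE embryonic stem cells that had received the first of a pair of short hairpin RNAs (shRNAs) against Prmt6 were set against the same cells with a hairpin against GFP, across every probe that was detected in either group. A probe was a member when its detection score was above 0.99 on both Prmt6 shRNA1 arrays or on both GFP shRNA arrays. This rule kept 6824 of the 46643 probes on the array, which stood for 5145 of its 20496 named genes. Of the kept probes, 5820 were detected on all 4 arrays, 486 were kept through the Prmt6 shRNA1 arrays alone and 518 through the GFP shRNA arrays alone. The lowest score inside the limit was 0.99002 and the highest outside it was 0.98939.

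The series holds 6 Illumina bead arrays in 3 groups of 2, namely Prmt6 shRNA1, Prmt6 shRNA2 and GFP shRNA. In every group the hairpin was carried by the pSuper.puro plasmid, delivered with Lipofectamine into CCE cells, a line kept without feeder cells in serum and LIF (leukemia inhibitory factor). Puromycin at 1.5 ug/ml was added after 18 h and kept for 4 days, so the GFP shRNA cells shared the vector, the transfection and the selection. The knockdown was transient and the labels do not say whether replicates were separate cultures, so p-values measure only the spread between these samples, which may be technical.

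Prmt6 encodes an arginine methyltransferase that places asymmetric dimethyl marks on histones, among them on an arginine of histone H3 beside the lysine whose methylation marks active promoters. Embryonic stem cells hold their state through a network of transcription factors that includes Oct4 (Pou5f1), Sox2 and Nanog. Cells that leave this state towards epithelial fates take up simple keratins, actin bundles, cell junctions and a basement membrane.

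The arrays differed in how much they detected. The 2 Prmt6 shRNA1 arrays detected 6369 and 10928 probes, the 2 Prmt6 shRNA2 arrays 7395 and 5782, and the 2 GFP shRNA arrays 9034 and 6444. The SD of the log2 difference between replicates over the kept probes was 0.439 for Prmt6 shRNA1, 0.977 for Prmt6 shRNA2 and 0.34 for GFP shRNA. The Prmt6 shRNA2 value came from probes of the higher-numbered of the array's 2 ID series, where it was 1.576, against 0.445 in the other series. Differences were fitted with limma on all 6 arrays, so the Prmt6 shRNA2 arrays entered the shared estimate of spread.

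The targeted gene was read first. The brightest Prmt6 probe had background-subtracted intensities of 48.3 and 147.6 in Prmt6 shRNA1 cells, 97.8 and -21.6 in Prmt6 shRNA2 cells and 389.8 and 266.1 in GFP shRNA cells. It belongs to the higher-numbered ID series, in which the Prmt6 shRNA2 replicates differed widely. Its SD on the log2 scale was 0.645 for Prmt6 shRNA1, 0.688 for Prmt6 shRNA2 and 0.153 for GFP shRNA, and all 3 groups entered the SE of the fit. Both Prmt6 shRNA1 arrays lay below both GFP shRNA arrays, and the probe was detected on 1 of the 2 Prmt6 shRNA1 arrays. The difference of -1.45 ± 0.44 on the log2 scale (SE of the fit), which is 2.74-fold lower, did not pass the test (limma adjusted p = 0.227). Of the other 2 Prmt6 probes, 1 gave 37.3 and 107.5 in Prmt6 shRNA1 cells against 276.6 and 210.9 in GFP shRNA cells, and the other was detected on none of the 6 arrays.

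Far more genes were called higher than lower in Prmt6 shRNA1 cells, although 47.9% of the 5145 genes had a difference above 0. The called rises were led by actins, tropomyosins and simple keratins. At an adjusted p under 0.05 (limma, Benjamini-Hochberg over all 6824 probes), 81 probes were called, or 1.19% of those tested. Of these, 76 were higher (1.11%) and 5 were lower (0.0733%). By the brightest probe of each gene, 73 genes were higher (1.42%) and 3 were lower (0.0583%). Many of the rises started from little or no signal: 24 of the 76 probes called higher were detected on no GFP shRNA array, while all 5 probes called lower were detected on all 4 arrays. Because a gene could be kept only through the group in which it was high, gene lists are described below mainly by their members detected on all 4 arrays. Of those 4479 genes, 0.915% were called higher and 0.067% lower, their median difference was -0.018 on the log2 scale, and 25.1% had both Prmt6 shRNA1 arrays above both GFP shRNA arrays, with 22.9% the other way.

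**Figure D1:**
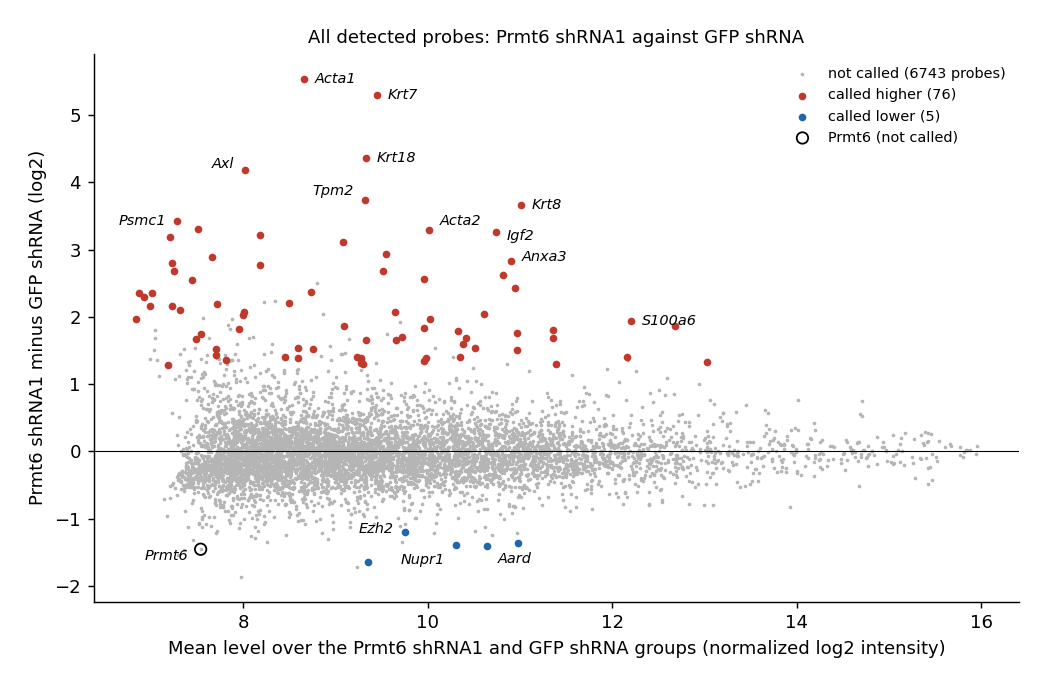
Each point is 1 of the 6824 kept probes, with its mean normalized log2 intensity over the Prmt6 shRNA1 and GFP shRNA groups on the x axis and the log2 difference, Prmt6 shRNA1 minus GFP shRNA, on the y axis. The 76 probes called higher reach 5.54, the 5 called lower reach -1.64, and Prmt6 (circled) lies at -1.45 without a call.

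Nearly all calls were lost when 1 of the 4 arrays was left out, in fits that assume the lone array varies like the other groups. Without Prmt6 shRNA1 replicate 1, without Prmt6 shRNA1 replicate 2 or without GFP shRNA replicate 2, limma called 0 probes (738, 693 and 528 at an unadjusted p under 0.05), and without GFP shRNA replicate 1 it called 6. When the 4 arrays were fitted without the Prmt6 shRNA2 arrays, 179 probes were called, 153 higher and 26 lower, and all 81 were among them. When any 1 array was left out, the fitted differences ranged from 5.34 to 5.73 for Acta1 and from 3.51 to 3.81 for Krt8. The 2 groups overlapped in none of the 81 called probes. Leaving out 1 array therefore could not reverse the direction of a named gene called against GFP shRNA.

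Keratins of simple epithelia were among the largest rises. Krt8 and Krt18 encode the filament pair of simple epithelia and of the trophectoderm, the outer layer of the blastocyst, and Krt7 is a further simple keratin. Krt7 had normalized log2 intensities of 12.09 and 12.11 in Prmt6 shRNA1 cells, against 7.27 and 6.32 in GFP shRNA cells, a difference of 5.30 ± 0.35 (39.5-fold, adjusted p = 0.0098). Krt18 had 11.68 and 11.34 in Prmt6 shRNA1 cells, against 7.50 and 6.80 in GFP shRNA cells (4.36 ± 0.28, 20.5-fold, adjusted p = 0.0087). Krt8 had 12.99 and 12.69 in Prmt6 shRNA1 cells, against 9.26 and 9.10 in GFP shRNA cells (3.66 ± 0.18, 12.7-fold, adjusted p = 0.0042). For all 3 genes the groups lay far apart, and Krt8 was the keratin detected on all 4 arrays, whereas 1 GFP shRNA array detected Krt7 and Krt18. The folds of Krt7 and Krt18, like those of Tpm2, Plaur and Mmp9, therefore rest partly on a GFP shRNA signal that did not pass the detection limit. These 3 were the only keratins kept of the 13 on the array. The epidermal keratins Krt5 and Krt14 were not kept, and neither were the simple keratins Krt19 and Krt20.

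Other epithelial genes rose beside the keratins, though few of the junction genes passed the test. Cldn4, a tight junction claudin, had 11.38 and 11.11 in Prmt6 shRNA1 cells, against 8.59 and 8.77 in GFP shRNA cells (2.56 ± 0.18, 5.92-fold, adjusted p = 0.010). It was the 1 called of 11 kept genes of claudins, cadherins and desmosomes. E-cadherin (Cdh1) differed by 0.30 and beta-catenin (Ctnnb1) by -0.06, neither of them called. Eppk1, a plakin that binds keratin filaments, was at least 5.07-fold higher in Prmt6 shRNA1 cells and undetected in GFP shRNA cells (adjusted p = 0.013). Dmkn, which encodes the epidermal secreted protein dermokine, was at least 2.56-fold higher and was likewise undetected in GFP shRNA cells (adjusted p = 0.0042). Here and below, "at least" marks a gene that no array of the lower group detected, whose fold was taken against the lowest signal among detected probes of each of those arrays, or the gene's own where that was higher.

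The trophectoderm list showed the same filament genes rather than the regulators of that lineage. Of its 9 kept members, 5 were called higher: Krt7, Krt8, Krt18, Cldn4 and Sct, which encodes the peptide hormone secretin (2.05, 4.13-fold). Krt7 and Krt18 were kept through the Prmt6 shRNA1 arrays alone. Of the 7 members detected on all 4 arrays, 3 were called higher, and their median was 0.61, against -0.018 over all such genes. Cdx2, a transcription factor that specifies trophectoderm, had 8.75 and 7.88 in Prmt6 shRNA1 cells, against 7.46 and 7.96 in GFP shRNA cells. Its groups overlapped and its difference of 0.61 ± 0.35 was not called (adjusted p = 0.543). Tfap2c differed by 0.20 and Ets2 by 0.51, without a call, and Elf5 and Eomes were detected on none of the 4 arrays.

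Actins and tropomyosins, the filaments of the contractile cytoskeleton, were the other leading group. Of 7 kept members, 5 rose, and of the 5 detected on all 4 arrays, 3 rose (median 1.80 on the log2 scale, against -0.018 over all such genes). Acta1, the skeletal muscle alpha-actin, had 11.61 and 11.25 in Prmt6 shRNA1 cells, against 6.09 and 5.70 in GFP shRNA cells, where it was not detected. It was at least 15.8-fold higher (adjusted p = 0.0042), with the largest fitted difference of any kept probe. Acta2, the smooth muscle alpha-actin, had 11.75 and 11.57 in Prmt6 shRNA1 cells, against 8.90 and 7.83 in GFP shRNA cells (3.29 ± 0.36, 9.80-fold, adjusted p = 0.027). A second Acta2 probe differed by 1.12, on the same side but without a call (adjusted p = 0.141).

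Tropomyosins lie along actin filaments and govern access of myosin. Tpm2 had 11.17 and 11.21 in Prmt6 shRNA1 cells, against 7.89 and 7.02 in GFP shRNA cells (3.73 ± 0.30, 13.3-fold, adjusted p = 0.014). Tpm1 had 11.04 and 10.67 in Prmt6 shRNA1 cells, against 8.14 and 8.21 in GFP shRNA cells (2.68 ± 0.19, 6.41-fold, adjusted p = 0.010). The brightest Tpm4 probe rose by 1.80 (adjusted p = 0.024), while Tpm3 differed by -0.20. Beta-actin (Actb) was near the top of the intensity range in both groups and its brightest probe differed by 0.19, with 0.52, 0.57, 0.76 and 1.45 on its other kept probes, none of them called.

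**Figure D2:**
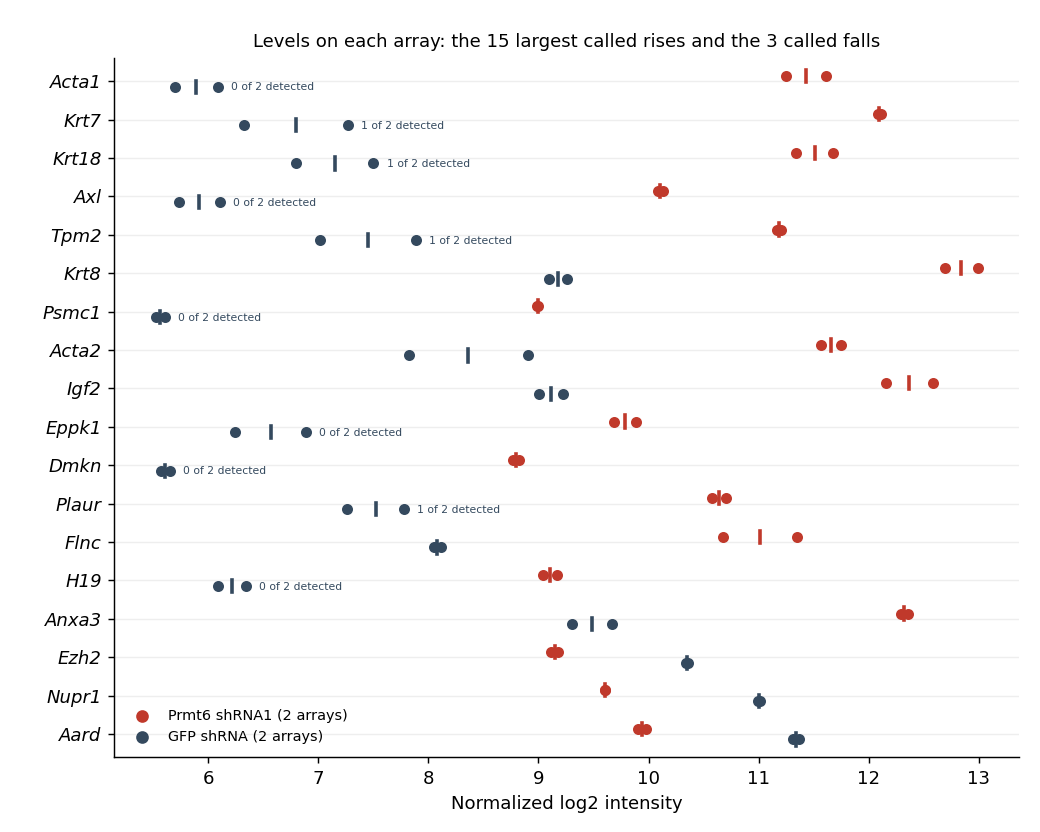
Normalized log2 intensity (x axis) on each array for the 15 largest called rises and the 3 called falls, chosen by the brightest probe of each gene. Points are arrays, vertical ticks are group means, Prmt6 shRNA1 is drawn above GFP shRNA in each row, and small text gives how many arrays of a group detected the gene where this was under 2. Genes were drawn only from those whose arrays did not overlap between the groups, so the separation in all 18 was set by that choice.

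The wider list of contractile and actin-binding genes moved mostly the same way, but with fewer calls. Many of its members are targets of SRF, the serum response factor, which is switched by the actin-sensing MRTF cofactors. Of 26 kept members, 6 were called higher and none lower. Among the 25 detected on all 4 arrays, 23 had a difference above 0 and the median was 0.96. Of these 25, 21 had both Prmt6 shRNA1 arrays above both GFP shRNA arrays and 0 were the other way. Over all genes detected on all 4 arrays, these shares were 25.1% and 22.9%. Flnc, an actin crosslinker, had 11.35 and 10.68 in Prmt6 shRNA1 cells, against 8.11 and 8.05 in GFP shRNA cells (2.93 ± 0.25, 7.64-fold, adjusted p = 0.014). Tagln2, of the transgelin family, had 10.91 and 10.44 in Prmt6 shRNA1 cells, against 8.46 and 8.77 in GFP shRNA cells (2.06 ± 0.23, 4.19-fold, adjusted p = 0.027).

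Myl9, a regulatory light chain of myosin, was undetected in GFP shRNA cells and was at least 1.67-fold higher in Prmt6 shRNA1 cells. Both of its kept probes were called, with fitted differences of 2.36 and 1.96. Ahnak, a giant scaffold protein, rose by 2.43 ± 0.18 on its brightest probe (5.39-fold, adjusted p = 0.011), while its other kept probe differed by 1.05 without a call. Srf itself had 8.87 and 8.92 in Prmt6 shRNA1 cells, against 8.47 and 8.23 in GFP shRNA cells, a difference of 0.55 ± 0.22 that was not called (adjusted p = 0.35). Flna, at 1.53 (adjusted p = 0.061), and Zyx, at 1.36, were also on the higher side without a call.

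The CArG box, the sequence that SRF binds, was searched for in RefSeq promoter windows (GRCm38.p6, 250 bases before to 50 after each start, both strands), a search chosen after the called genes were known. Of the 73 genes called higher, 58 had a window, and 5 of these held an exact CArG box (8.62%). Among the 11 called actin, tropomyosin and contractile genes, 2 held it (18.2%). The share was 1.76% of the 4198 kept genes with a window and 1.81% of all 27025 genes with a window, where a gene counts if any of its windows matches. Of all 32851 single windows it was 1.63%. The 58 called genes had 87 windows, and a gene with more windows has more room for a match. The motif lay before the start in 4 of the 5 genes, whose 250 upstream bases follow with the CArG box in capitals, printed 5′ to 3′ on the strand of the gene. Myadm, a membrane protein of the MAL family, is among them through the motif alone and rose by 1.41. The regions are chr8:123894776-123895025 (minus strand) for Acta1, chr2:156775214-156775463 (plus) for Myl9, chr7:142661272-142661521 (minus) for Igf2, which has several promoters, and chr7:3292778-3293027 (plus) for Myadm.
Acta1: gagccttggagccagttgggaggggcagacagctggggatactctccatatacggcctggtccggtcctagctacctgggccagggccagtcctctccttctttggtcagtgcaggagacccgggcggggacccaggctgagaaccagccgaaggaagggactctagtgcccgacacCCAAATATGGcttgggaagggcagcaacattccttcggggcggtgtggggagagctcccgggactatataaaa
Myl9: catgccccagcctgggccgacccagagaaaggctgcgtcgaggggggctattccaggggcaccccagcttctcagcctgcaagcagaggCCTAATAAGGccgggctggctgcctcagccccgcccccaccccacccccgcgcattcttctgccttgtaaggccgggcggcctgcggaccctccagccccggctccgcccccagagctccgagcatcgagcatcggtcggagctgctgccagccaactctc
Igf2: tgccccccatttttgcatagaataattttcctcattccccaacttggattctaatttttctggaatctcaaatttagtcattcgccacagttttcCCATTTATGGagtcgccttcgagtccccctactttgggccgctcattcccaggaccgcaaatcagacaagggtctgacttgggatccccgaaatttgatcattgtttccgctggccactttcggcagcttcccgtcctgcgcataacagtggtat
Myadm: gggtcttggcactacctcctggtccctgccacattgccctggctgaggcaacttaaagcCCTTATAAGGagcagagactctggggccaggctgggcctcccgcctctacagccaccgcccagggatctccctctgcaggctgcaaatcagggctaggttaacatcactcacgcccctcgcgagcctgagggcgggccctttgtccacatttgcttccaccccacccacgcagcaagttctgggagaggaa
In the same windows, GGAATG, the core of the TEAD motif, was found on either strand in 15 of the 58 genes (25.9%), against 13.7% of kept genes and 16.6% of all genes with a window. TGANTCA, the AP-1 motif, was found in 11 of the 58 genes (19%), against 5.48% of kept genes and 8.97% of all genes with a window. Among the 11 called actin, tropomyosin and contractile genes, 6 held GGAATG and 1 held TGANTCA. No window of a called gene had overlapping matches of different motifs, and a match was not tested as a site.

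Annexins and their S100 partners, which bind membranes in the presence of calcium, rose in most of the members that were kept. Of the 16 on the array, 7 were kept and 6 were called higher, against 1.42% of all kept genes. Of the 5 detected on all 4 arrays, 4 were called higher (median 1.87), against 0.915% of all such genes. Anxa3 had 12.29 and 12.36 in Prmt6 shRNA1 cells, against 9.67 and 9.31 in GFP shRNA cells (2.84 ± 0.20, 7.14-fold, adjusted p = 0.010). Anxa2 had 13.48 and 13.75 in Prmt6 shRNA1 cells, against 11.78 and 11.71 in GFP shRNA cells (1.87 ± 0.17, 3.65-fold, adjusted p = 0.017). S100a6 had 13.12 and 13.23 in Prmt6 shRNA1 cells, against 11.23 and 11.24 in GFP shRNA cells (1.94 ± 0.17, 3.84-fold, adjusted p = 0.014). These were strong signals in both groups. Anxa1 was undetected in GFP shRNA cells and was at least 1.52-fold higher (adjusted p = 0.010), and S100a10, the partner of Anxa2, differed by 0.94 without a call.

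Receptors and adhesion molecules contributed single large rises. Axl, a receptor tyrosine kinase, had 10.13 and 10.08 in Prmt6 shRNA1 cells, against 6.10 and 5.74 in GFP shRNA cells, where it was not detected. It was at least 6.35-fold higher (adjusted p = 0.0042). Axl and Myof, a membrane repair protein of the ferlin family (1.69 ± 0.18, 3.24-fold, adjusted p = 0.024), were the 2 called of 12 kept genes on the list of YAP and TEAD factors and targets. The coactivator Yap1 itself differed by 0.22 ± 0.19 and the classic targets Ccn1 and Ccn2 by 1.53 and 0.41, none of them called. Itga3, a laminin-binding integrin, rose by 1.87 ± 0.19 (3.65-fold, adjusted p = 0.024) and was the 1 called of 8 kept integrin and focal adhesion genes. The 6 detected on all 4 arrays all differed upwards, from 0.12 to 1.87.

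Genes of pericellular proteolysis also lay on the higher side. Plaur, the urokinase receptor, had 10.58 and 10.70 in Prmt6 shRNA1 cells, against 7.78 and 7.27 in GFP shRNA cells (3.12 ± 0.23, 8.69-fold, adjusted p = 0.010). Timp3, an inhibitor of metalloproteinases, was at least 2.57-fold higher (adjusted p = 0.025), and the gelatinase Mmp9 rose by 1.36 ± 0.17 (2.57-fold, adjusted p = 0.035). None of these 3 was detected on both GFP shRNA arrays. The 7 list members detected on all 4 arrays had 0 calls, a median of 0.52 and, in all 7, both Prmt6 shRNA1 arrays above both GFP shRNA arrays. Basement membrane and matrix genes had 1 call of 15 kept, Nid1 (nidogen, 1.39 ± 0.18, 2.61-fold, adjusted p = 0.039). All 12 of that list detected on all 4 arrays lay higher without overlap, with a median of 0.76. Over all genes detected on all 4 arrays, the share that lay higher without overlap was 25.1%.

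The imprinted neighbours Igf2, a fetal growth factor, and H19, a long noncoding RNA, both rose. Igf2 had 12.59 and 12.15 in Prmt6 shRNA1 cells, against 9.0 and 9.22 in GFP shRNA cells (3.26 ± 0.21, 9.56-fold, adjusted p = 0.0087). H19 had 9.04 and 9.17 in Prmt6 shRNA1 cells, against 6.34 and 6.09 in GFP shRNA cells, where it was not detected, and was at least 3.16-fold higher (adjusted p = 0.0078). The other 6 kept imprinted genes were not called by their brightest probe.

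Several further rises belonged to no common list. Psmc1, an ATPase subunit of the proteasome, had 8.99 and 9.0 in Prmt6 shRNA1 cells, against 5.52 and 5.61 in GFP shRNA cells, where its 1 kept probe was not detected. It was at least 2.93-fold higher (adjusted p = 0.0042). Nppb, a natriuretic peptide gene, was at least 2.27-fold higher (adjusted p = 0.0087). Cdkn1a, the p53 target and cyclin-dependent kinase inhibitor p21, had 12.11 and 11.97 in Prmt6 shRNA1 cells, against 10.62 and 10.86 in GFP shRNA cells (1.30 ± 0.17, 2.46-fold, adjusted p = 0.046). It was the 1 called of 15 kept p53 targets, whose median was 0.26, and its second probe differed by 1.31 without a call (adjusted p = 0.061). Phlda1, a target of ERK signalling, rose by 1.79 ± 0.18 (3.46-fold, adjusted p = 0.019) and was the 1 called of 11 kept genes on the FGF and ERK list.

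The called falls were few and small, and all of them were of well detected genes. Aard had 9.97 and 9.90 in Prmt6 shRNA1 cells, against 11.32 and 11.37 in GFP shRNA cells (-1.40 ± 0.14, 2.65-fold lower, adjusted p = 0.023). Nupr1, a nuclear protein induced by stress, had 9.60 and 9.61 in Prmt6 shRNA1 cells, against 10.99 and 11.01 in GFP shRNA cells (-1.40 ± 0.16, 2.63-fold lower, adjusted p = 0.029). Ezh2, which carries out histone methylation for Polycomb complexes, had 9.12 and 9.18 in Prmt6 shRNA1 cells, against 10.34 and 10.36 in GFP shRNA cells (-1.20 ± 0.14, 2.30-fold lower, adjusted p = 0.035). In these 3 genes the replicates lay close together, which the test favours in small differences. That the groups did not overlap was a condition for naming them here. Ezh2 was the 1 called of 9 kept Polycomb genes, among which its complex partner Eed differed by -0.15. The remaining calls were an unnamed probe (-1.36) and a probe of Impact, an imprinted gene (-1.64, adjusted p = 0.042), whose brightest probe differed by -0.53 without a call. Impact is named here after its values were seen.

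No pluripotency gene was called, and the core genes nevertheless lay on the lower side together. All 12 core genes detected on all 4 arrays differed downwards, with a median of -0.43. Of these, 9 had both Prmt6 shRNA1 arrays below both GFP shRNA arrays, against 22.9% of all genes detected on all 4 arrays. Pou5f1 had 11.77 and 11.25 in Prmt6 shRNA1 cells, against 11.95 and 12.11 in GFP shRNA cells (-0.52 ± 0.22, adjusted p = 0.379). Sox2 had 8.76 and 8.43 in Prmt6 shRNA1 cells, against 9.69 and 9.76 in GFP shRNA cells (-1.13 ± 0.17, 2.19-fold lower, adjusted p = 0.061). Sox2 was called under 11 of 24 other settings, with adjusted p from 0.00681 to 0.999. Nanog had 12.15 and 12.83 in Prmt6 shRNA1 cells, against 13.27 and 12.38 in GFP shRNA cells, so its groups overlapped (-0.34 ± 0.38, adjusted p = 0.804). The gene's other 2 probes differed by -1.18 and -1.21 without a call (adjusted p = 0.071 and 0.060).

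Under median scaling in place of quantile normalization the median of all probes stood at 0.417, and the median of the 13 kept core pluripotency genes, -0.52 in the reported fit, was then 0.01, or -0.40 relative to all probes. Pou5f1 (0.08), Nanog (0.30), Zfp42 (0.07) and Esrrb (0.24) changed sign under that scaling. Among naive pluripotency genes, Klf4 differed by -0.74 ± 0.15 (adjusted p = 0.12), Zfp42 by -0.46 and Esrrb by -0.38, and the median of the 11 detected on all 4 arrays was -0.34. Over the 12 kept it was -0.29, or -0.15 relative to all probes under median scaling.

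Regulators of other lineages were not called either. The endoderm factors Gata4 and Gata6 differed by 0.88 ± 0.18 (adjusted p = 0.116) and 0.37 ± 0.20 (adjusted p = 0.50), and the 12 kept endoderm genes had 0 calls, with a median of 0.62 over the 8 detected on all 4 arrays. Of the 8 kept neuroectoderm genes, none was called and 4 were kept through the GFP shRNA arrays alone. The 4 detected on all 4 arrays had a median of -0.47, and 2 of them had both Prmt6 shRNA1 arrays below both GFP shRNA arrays. That share was 22.9% over all genes detected on all 4 arrays. Of 22 listed primitive streak and mesoderm genes, 2 were kept and neither was called. Of the S phase and mitosis genes, 21 of the 22 detected on all 4 arrays differed downwards, by a median of -0.28, with 0 calls among the 24 kept. Of all genes detected on all 4 arrays, 47.4% differed upwards. Under median scaling the median of the 24 kept, -0.31 in the reported fit, was 0.17, or -0.25 relative to all probes. Cytoplasmic ribosomal proteins had a median of -0.01 and a set of common reference genes one of -0.04, both without a call. Under median scaling these medians were 0.64 and 0.63, or 0.23 and 0.22 relative to all probes.

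**Figure D3:**
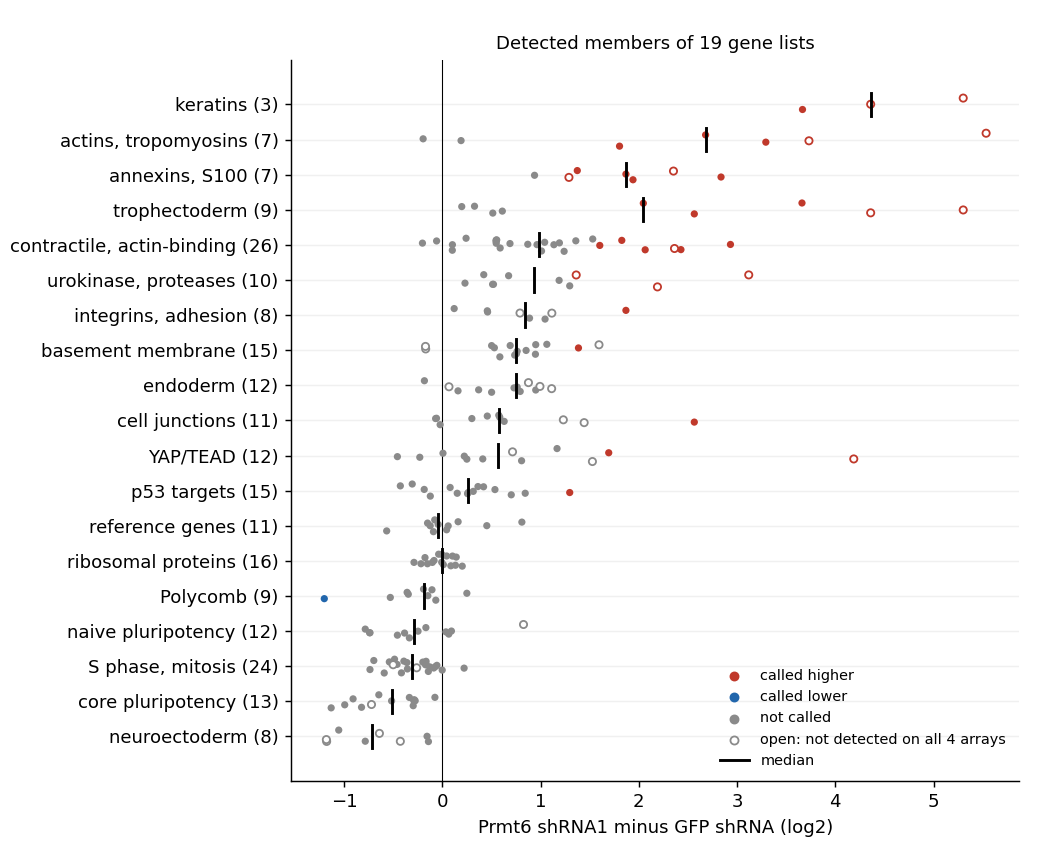
Log2 difference, Prmt6 shRNA1 minus GFP shRNA (x axis), of the kept members of 19 gene lists, with the number of kept members in brackets. Each point is the brightest probe of a gene, open points were not detected on all 4 arrays, and black ticks are medians over all kept members, which the open points help to set. Over members detected on all 4 arrays the medians are 1.87 for annexins and S100 genes, 1.80 for actins and tropomyosins, -0.43 for core pluripotency and -0.47 for neuroectoderm genes.

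Markers of other cell types were read beside these lists. None of 9 fibroblast and feeder markers, among them Col1a1 and Thy1, and none of 7 muscle markers, among them Myod1, Des and Actc1, was detected on any of the 6 arrays. Broader lists of 14 fibroblast and 15 muscle genes had 2 and 1 kept members, namely Acta2 (3.29, called) with Vim (0.17, not called), and Nppb (2.81, called). Of the 6 embryonic stem cell markers on the array, 5 were detected on every array, and their summed intensity was 11084.8 and 20710.2 in Prmt6 shRNA1 cells, against 29730.5 and 18486.4 in GFP shRNA cells. Of 9 trophectoderm markers, 5 and 7 were detected on the Prmt6 shRNA1 arrays, against 5 and 3 on the GFP shRNA arrays. Their summed intensity was 12086.5 and 19482.3 in Prmt6 shRNA1 cells, against 2816.7 and 2042.4 in GFP shRNA cells, and it includes the called keratins. In such bulk RNA, more cells of a type and more RNA per cell cannot be told apart, and the part of such cells in the rises was not tested.

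The second Prmt6 hairpin was set beside the first to show where the first stood apart. Both were compared with the same 2 GFP shRNA arrays, so their differences from GFP shRNA are not independent. Against GFP shRNA, Acta1 differed by 5.54 with Prmt6 shRNA1 and 1.41 with Prmt6 shRNA2, Krt7 by 5.30 and 1.21, Tpm2 by 3.73 and 0.12, and Psmc1 by 3.43 and -0.02. Acta1 and Psmc1 were detected on no Prmt6 shRNA2 or GFP shRNA array. Their differences with Prmt6 shRNA2 therefore compare undetected signals, and those with Prmt6 shRNA1 depend on an undetected GFP shRNA signal. Anxa3 differed by 2.84 with Prmt6 shRNA1 and 2.44 with Prmt6 shRNA2, S100a6 by 1.94 and 2.25, Cdkn1a by 1.30 and 1.53, and Phlda1 by 1.79 and 1.83.

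The test of the hairpins against each other called 25 of the 6824 probes (0.366%), 18 higher in Prmt6 shRNA1 cells (0.264%) and 7 lower (0.103%). Probes were kept through the Prmt6 shRNA1 or GFP shRNA arrays and never through Prmt6 shRNA2 alone, so the split of higher and lower calls is partly set by the filter. When probes detected on all 4 of those arrays were tested by themselves, 0 were called (735 at an unadjusted p under 0.05). Acta1 had 11.61 and 11.25 with Prmt6 shRNA1, against 7.30 and 7.30 with Prmt6 shRNA2, where it was not detected, and was at least 12.6-fold higher (adjusted p = 0.0097). Krt7 was 17.0-fold higher with Prmt6 shRNA1 than with Prmt6 shRNA2 (adjusted p = 0.042), and Krt8 was 3.43-fold higher (adjusted p = 0.042). Tpm2 was at least 10.6-fold higher with Prmt6 shRNA1 (adjusted p = 0.042). The probes lower with Prmt6 shRNA1 included linker and core histone genes: H1f2 had 9.53 and 9.63 with Prmt6 shRNA1, against 11.73 and 11.67 with Prmt6 shRNA2 (-2.11 ± 0.16, adjusted p = 0.042). Against GFP shRNA, H1f2 differed by -0.27 with Prmt6 shRNA1 and by 1.84 with Prmt6 shRNA2. Without Prmt6 shRNA2 replicate 1 the test called 823 probes and without Prmt6 shRNA2 replicate 2 it called 9. Without any one of the Prmt6 shRNA1 or GFP shRNA arrays it called 0 (804 and 506 at an unadjusted p under 0.05 without Prmt6 shRNA1 replicate 1 and 2, and 547 without either GFP shRNA array).

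**Figure D4:**
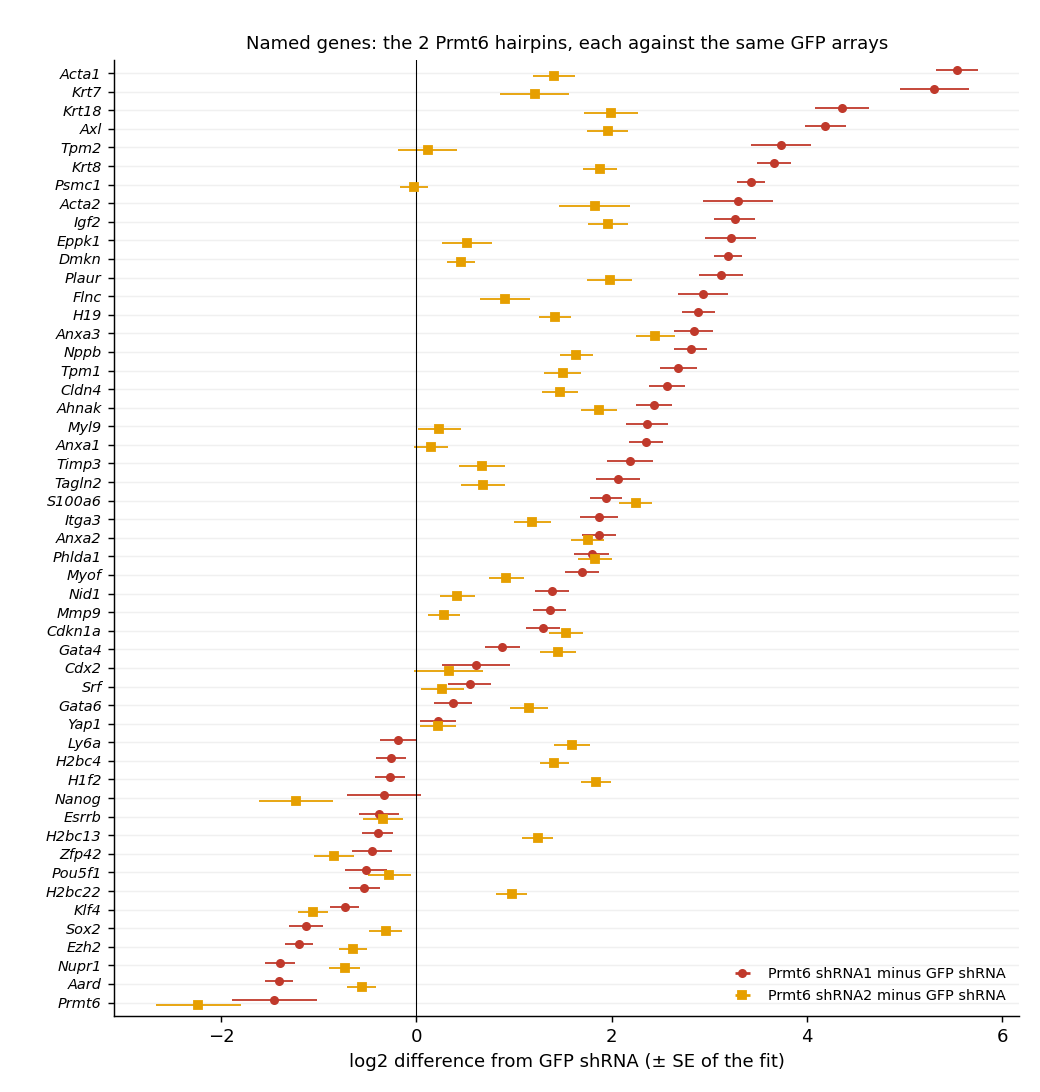
Log2 difference from GFP shRNA (x axis, ± SE of the fit) of the named genes with Prmt6 shRNA1 (circles) and Prmt6 shRNA2 (squares), ordered by the Prmt6 shRNA1 difference. Acta1, Krt7, Tpm2 and Psmc1 lie far apart between the hairpins, at 5.54, 5.30, 3.73 and 3.43 with Prmt6 shRNA1 against 1.41, 1.21, 0.12 and -0.02 with Prmt6 shRNA2, while S100a6 and Phlda1 lie close. Acta1 and Psmc1 were detected on no Prmt6 shRNA2 or GFP shRNA array.

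The number of calls depended strongly on the settings, whereas more rises than falls were called under each setting that made any call, most narrowly (641 against 568) under a crossed pairing of the replicates. Probes of the first ID series alone, tested by themselves, gave 346 calls, 268 higher and 78 lower, and those of the second series alone gave 0 (65 at an unadjusted p under 0.05). The authors' deposited processed log2 values, tested in the same way, gave 104 calls, of which 78 were among the 81.

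**Figure D5:**
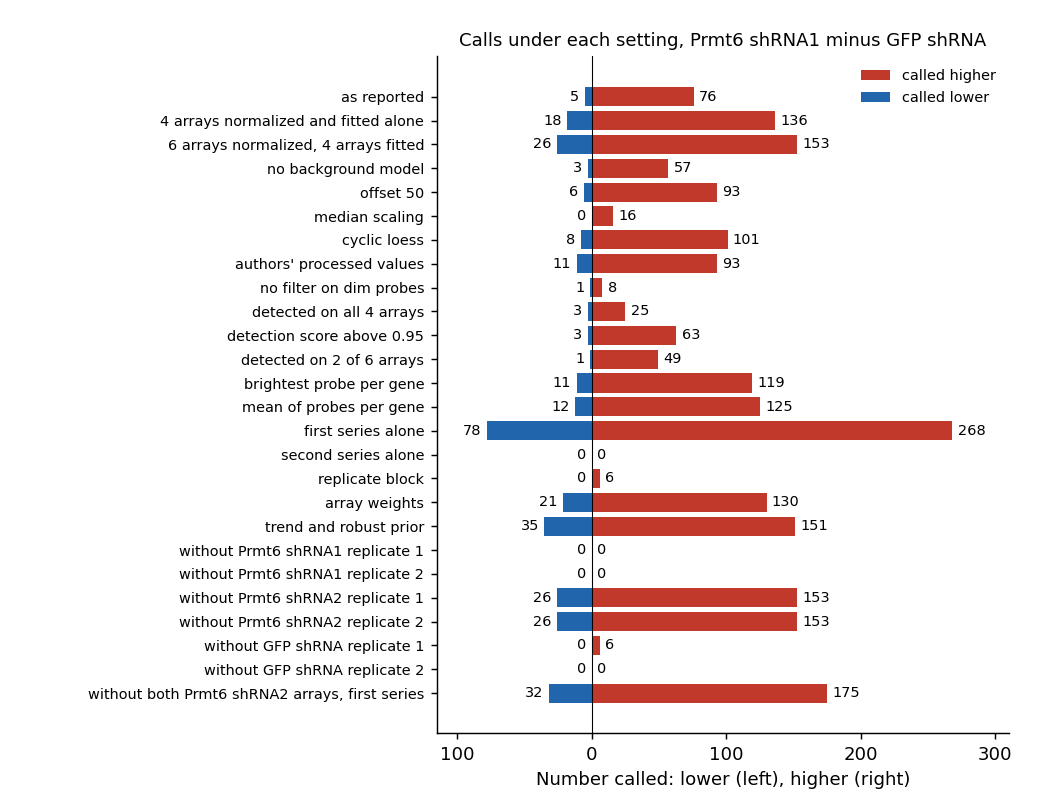
Number of probes, or of genes where a setting works by gene, called higher (right) and lower (left) in Prmt6 shRNA1 against GFP shRNA under each setting. The values reported here are 76 and 5, and every setting drawn that made a call has more to the right than to the left; the crossed pairing is not drawn.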

How the data were processed

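Mean bead intensities on a linear scale, with background already subtracted by the authors (many values lie below 0), and a detection score between 0 and 1, a fraction per the file headers, were deposited for 6 arrays. The score climbs with intensity and was therefore taken as 1 minus a detection p. The authors also deposited processed log2 values, for which the submitters' processing notes name lumi; its settings and the array build are not given in the sources used here.

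Intensities were background-corrected, quantile-normalized and put on the log2 scale with neqc (offset 16, limma 3.58.1, R 4.3.3) on all 6 arrays. Probes with a score above 0.99 on both arrays of Prmt6 shRNA1 or GFP shRNA were fitted with 1 mean per group (lmFit and eBayes; 3 residual and 2.33 prior degrees of freedom), two-sided, adjusted by Benjamini-Hochberg over 6824 probes and called under 0.05. An exact permutation of 2 against 2 arrays cannot go below p = 0.333. The fit was tested on simulated data. Symbols were matched to a RefSeq table (GRCm38.p6): 34385 of 46643 probes matched, 9189 of them by synonym, 214 matched several genes and 12044 none. A gene is its brightest kept probe.

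Genes were named by rule: Prmt6, the 15 largest called rises and up to 15 falls, up to 4 called members of each list, 13 genes whatever their result, and the 5 largest calls each way between the hairpins. The largest rises and falls, and the calls between the hairpins, were taken only where the arrays of the compared groups did not overlap. Other names come from the lists' members. The members and lists were chosen with earlier results of these data known. Alternatives covered background, scaling, filter, probe choice, replicate block, array weights and each array left out. The numbers shared by replicates did not pair the samples (r = -0.538 between the replicate differences of Prmt6 shRNA1 and GFP shRNA). The number of arrays limits the precision.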

Additional observations from a re-analysis of the deposited data

Results flagged for a closer look

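10 genes differed between the 2 Prmt6 hairpins by the direct test (limma, adjusted p from 0.0083 to 0.044), on the log2 scale of Prmt6 shRNA1 minus Prmt6 shRNA2. Among probes matched to 1 gene symbol, the 5 largest differences upwards were Acta1 (4.13), Krt7 (4.09), Tpm2 (3.62), Psmc1 (3.45) and Dmkn (2.73). No Prmt6 shRNA2 array detected Acta1, Tpm2, Psmc1 or Dmkn. The 5 largest downwards by the same rule were H1f2 (-2.11), Ly6a (-1.78), H2bc4 (-1.67), H2bc13 (-1.64) and H2bc22 (-1.51), of which 4 are histone genes and Ly6a encodes a surface antigen. Probes without a matched gene differed downwards by -2.76 and -1.89. Each rests on 2 arrays a group, and no group was large enough to look for single outlying arrays.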

How the results depend on the processing

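Calls for Prmt6 shRNA1 minus GFP shRNA (81 probes, 76 higher and 5 lower) came to 154 (136, 18) with the 4 arrays normalized and fitted alone, 179 (153, 26) with 6 arrays normalized and 4 fitted, 16 (16, 0) under median scaling, 9 (8, 1) with no filter on dim probes, 28 (25, 3) for probes detected on all 4 arrays, 50 (49, 1) for probes detected on 2 of 6 arrays, 130 (119, 11) with the brightest probe per gene, 137 (125, 12) with the mean of probes per gene, 346 (268, 78) in the first series alone, 0 in the second, 151 (130, 21) with array weights and 186 (151, 35) with a trended robust prior. Falls alone moved to 3 with no background model, 8 under cyclic loess, 11 in the authors' processed values and 3 at a detection score above 0.95. Leaving out 1 array at a time gave 0 to 179 calls (0 to 153 higher, 0 to 26 lower). With the replicate number as a block, 6 (6, 0) were called, where the shared numbers do not pair the samples. The crossed pairing, chosen after seeing the data, called 1209 (641, 568), and 207 (175, 32) were called without both Prmt6 shRNA2 arrays in the first series, also chosen after seeing the data.

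Between the hairpins, the 25 calls came to 3 with no background model, with no filter, at a score above 0.95, for probes detected on 2 of 6 arrays and with array weights, to 129 under median scaling, 0 for probes detected on all 4 arrays, 128 in the first series, 0 in the second, 46 with a trended robust prior, 0 with the replicate block and 0 to 823 when 1 array was left out. The causes were not tested. Changes of sign against GFP shRNA, none of them in a called gene, occurred under median scaling for Pou5f1 (0.082), Nanog (0.30), Zfp42 (0.073), Esrrb (0.24), H1f2 (0.21), Ly6a (0.19) and H2bc4 (0.23), and for Nanog without Prmt6 shRNA1 replicate 1 (0.005) and without GFP shRNA replicate 1 (0.11), within a range of -0.78 to 0.11 when 1 array was left out. Of 1408 values of named genes, 1056 kept their direction and side of the threshold, 330 kept the direction and lost the call and 13 gained one. Signal near background limits the folds of genes that GFP shRNA arrays did not detect.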
